A study of Mus musculus with 3 samples.

Results

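T cells of the developing mouse lung were described from scRNA-Seq, in which each transcript is counted once by its unique molecular identifier (UMI). A cell was taken as a T cell when its raw counts held at least 2 UMIs of *Cd3e*, *Cd3d*, and *Cd3g* together, at least 1 UMI of *Trac* and *Trbc2* together, and none of *Ncr1*, *Klre1*, or *Cd79a*. This rule found 222 T cells among 7642 lung cells in which 200 or more genes were detected and mitochondrial transcripts took no more than 20% of UMIs. The lungs came from 3 wild-type C57BL/6 mice (mice 2, 3, and 4), kept in room air (RA) from postnatal day 1 to 14 and taken at P14. No allele was changed and no agent was given. The mice form 1 condition, so T cells were compared with other cells of the same lungs and not between treatments. Whole lungs were dissociated without a sort, and 1 library was made per mouse.

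Mice 2, 3, and 4 gave 60 of 2386, 96 of 2601, and 66 of 2655 cells as T cells, or 2.51%, 3.69%, and 2.49% (mean 2.90% ± 0.688 SD, n = 3). Exact 95% binomial intervals were 1.92% to 3.23%, 3.00% to 4.49%, and 1.93% to 3.15%, and cover counting error only. T cells were a median of 6197.5 UMIs deep, and their summed UMIs were 510167, 777431, and 486108. Beside them stood 54 NK cells (14, 30, and 10; at least 2 UMIs of *Ncr1* and *Klre1*, at most 1 of the *Cd3* genes, and no *Cd79a*) and 1810 B cells (404, 895, and 511; at least 2 UMIs of *Cd79a* and none of the *Cd3* genes, *Ncr1*, or *Klre1*). Another 791 immune cells (183, 342, and 266) had a UMI of *Ptprc*, the pan-leukocyte phosphatase CD45, and none of the *Cd3* genes, *Ncr1*, *Klre1*, or *Cd79a*, although 31 of them held *Trbc2*. T cells made up 7.95% ± 1.03 of these gated immune cells (mean ± SD, n = 3). The libraries shared 12 cell barcodes among all deposited cells, and 2 of the cells that carry them were T cells.

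A T cell recognizes antigen through the T cell receptor, a pair of variable chains (α and β, or γ and δ) that sits in the membrane with the invariant CD3 chains. Contact with antigen is passed on by the kinases LCK and ZAP70 and the adaptor LAT, with CD4 or CD8 as coreceptor on helper and killer cells, respectively. Naive T cells recirculate between blood and lymph nodes under homing receptors such as CCR7. Regulatory T cells, set by the transcription factor FOXP3, restrain the others, and in the neonatal lung T cells are present together with innate lymphoid cells that share much of their transcription.

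The 3 *Cd3* genes lie side by side on chromosome 9 (GRCm38, GENCODE M21). *Cd3g* spans 44969572 to 44980431 on the minus strand, *Cd3d* 44981786 to 44987339 on the plus strand, and *Cd3e* 44998740 to 45009627 on the minus strand. *Cd3g* and *Cd3d* are read away from each other from RefSeq starts 1355 bases apart. The sequences before these starts are shown because *Cd3g* and *Cd3d*, although neighbors, did not go together in all cells that the rule took. Those of *Bcl11b*, a transcription factor of T cell commitment, and *Il7r*, the receptor chain for the survival cytokine IL-7, are shown as genes that the rule did not use and that were higher in T cells than in NK, B, and other immune cells. Each run holds the 250 bases before the start, 5′ to 3′ on the gene's own strand (RefSeq, GRCm38.p6): *Cd3g* chr9:44980432-44980681, minus strand, *Cd3d* chr9:44981536-44981785, plus strand, *Cd3e* chr9:45009612-45009861, minus strand, *Bcl11b* chr12:108003415-108003664, minus strand, and *Il7r* chr15:9529877-9530126, minus strand. Capitals mark matches to core letters of 3 families of factors active in T cells, searched on both strands: TGTGGT (RUNX), CTTTGA (TCF/LEF), and AGGAAG (ETS).
Cd3g: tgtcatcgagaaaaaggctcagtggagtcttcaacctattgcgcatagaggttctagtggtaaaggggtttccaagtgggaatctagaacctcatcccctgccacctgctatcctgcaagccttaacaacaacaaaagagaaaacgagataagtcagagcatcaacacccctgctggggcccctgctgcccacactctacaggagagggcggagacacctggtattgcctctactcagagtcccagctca
Cd3d: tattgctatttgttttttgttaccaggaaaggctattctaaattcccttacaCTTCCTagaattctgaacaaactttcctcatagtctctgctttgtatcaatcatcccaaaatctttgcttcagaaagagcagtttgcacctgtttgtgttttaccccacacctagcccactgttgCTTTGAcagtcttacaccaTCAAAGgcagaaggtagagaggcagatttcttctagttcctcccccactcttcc
Cd3e: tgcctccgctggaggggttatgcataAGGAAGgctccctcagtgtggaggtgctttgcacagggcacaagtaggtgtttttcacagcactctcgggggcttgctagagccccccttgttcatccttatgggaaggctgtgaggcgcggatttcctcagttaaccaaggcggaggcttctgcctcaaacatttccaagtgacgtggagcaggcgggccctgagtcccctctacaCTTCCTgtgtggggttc
Bcl11b: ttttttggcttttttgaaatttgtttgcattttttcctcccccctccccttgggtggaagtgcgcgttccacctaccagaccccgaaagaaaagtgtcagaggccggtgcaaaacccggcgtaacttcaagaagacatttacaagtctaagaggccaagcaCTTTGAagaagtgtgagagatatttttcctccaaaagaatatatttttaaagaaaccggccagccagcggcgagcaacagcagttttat
Il7r: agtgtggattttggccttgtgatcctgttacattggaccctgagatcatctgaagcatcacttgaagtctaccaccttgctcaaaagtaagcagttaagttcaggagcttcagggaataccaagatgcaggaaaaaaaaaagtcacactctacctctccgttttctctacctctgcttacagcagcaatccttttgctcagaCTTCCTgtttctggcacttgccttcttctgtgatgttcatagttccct
The TCF/LEF letters stood in the *Cd3d* window at 2 places and in the *Bcl11b* window at 1, and were found in 13.8% of all 32851 windows of this length. The ETS letters stood at 2 places before *Cd3e* and at 1 each before *Cd3d* and *Il7r*, and were found in 29.5% of all windows. No match to the RUNX letters, present in 14.0% of all windows, was found in these 5, and the *Cd3g* window held none of the 3. No matches overlapped in these windows, and a match is a stretch of letters, not a measured binding site.

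The levels of the genes that chose the cells are given as a description, in UMIs per 1000000 summed UMIs (CPM) in mice 2, 3, and 4, without a test. In T cells, *Cd3g* stood at 751, 614, and 621 CPM, *Cd3d* at 629, 488, and 496 CPM, and *Cd3e* at 249, 229, and 243 CPM. The constant region of the α chain, *Trac*, stood at 280.3, 347, and 317 CPM and that of the β chain, *Trbc2*, at 1006, 1149.9, and 1101 CPM. The levels of each gene thus lay close together in the 3 mice. *Trbc2* is nearly identical to its neighbor *Trbc1*, so the split of reads between these copies is uncertain. *Trbc1*, which the rule did not name, stood at 980.1, 678, and 706 CPM in T cells and 511, 314, and 626 CPM in NK cells, and these ranges did not overlap. NK cells also held 61 UMIs of *Trbc2*, in 21 of 54 cells, but 4 UMIs of *Trac*, all in 1 cell of mouse 4.

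**Figure D1:**
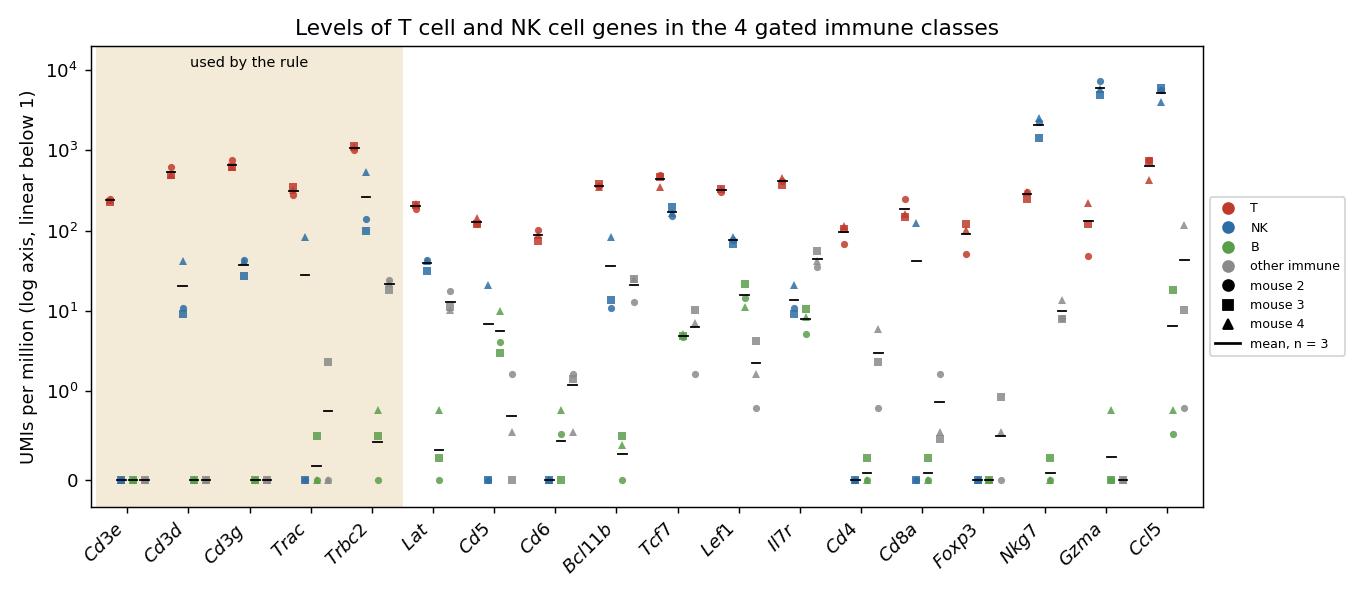
Levels in CPM (log axis, linear below 1) of 18 genes in T cells, NK cells, B cells, and other immune cells. Each point is 1 mouse and each line the mean of 3 mice, and the shaded genes were used by the rule. *Lat*, *Bcl11b*, *Lef1*, and *Il7r* lie highest in T cells in each mouse, and *Nkg7*, *Gzma*, and *Ccl5* lie highest in NK cells.

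T cells had a median of 9 *Cd3* UMIs (2 to 67) and 9 UMIs of *Trac* and *Trbc2* (1 to 60). Just inside the rule, 12 cells had exactly 2 *Cd3* UMIs and 14 had exactly 1 receptor UMI. Just outside, 7 cells had 1 *Cd3* UMI, of which 6 carried *Il1rl1*, the receptor for the alarmin IL-33, and 16 cells had no receptor UMI, of which 2 carried *Trdc*, the constant region of the δ chain. Another 40 cells met the *Cd3* and receptor limits but had *Ncr1* or *Klre1* UMIs, 29 of them with *Gzma* and 14 with *Trdc*. The rule thus left out cells with both *Cd3* and NK receptor transcripts, and cells with *Trdc* but neither *Trac* nor *Trbc2*.

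The 5 T cell markers *Cd3e*, *Cd3d*, *Cd3g*, *Trac*, and *Trbc2* were detected in 167, 182, 215, 164, and 216 of the 222 cells, respectively. Those without *Trac* numbered 58 (17, 19, and 22), which by the rule all had *Trbc2*, and of which 55 had *Cd3g*, 31 *Cd3d*, and 27 *Cd3e*. Markers of other cells were detected too. A list for innate lymphoid 2 cells (*Il1rl1*, *Gata3*, *Rora*, *Areg*, *Klrg1*, *Il13*) had all 6 genes detected in T cells, at summed levels of 655, 609.7, and 599 CPM, against 164, 213, and 174 CPM in other immune cells. They were led by *Gata3* (449 UMIs), which T cells also use. Of these UMIs, 182 lay in 31 cells with *Il1rl1* and no coreceptor UMI, at 865, 842, and 581 CPM. *Il13*, a type 2 cytokine, was detected in 10 of the 222 cells (3, 3, and 4). None had *Trac*, so that the rule required *Trbc2* in each, and all 10 had *Cd3g*, 1 had *Cd3e*, and none had *Cd3d*. The other 212 cells had *Cd3d* in 182, *Cd3e* in 166, and *Trac* in 164. In the cells with *Il13* the label T cell therefore rests on *Cd3g* and *Trbc2*, and the absence of the other markers goes against it there. The same holds less fully for the 31 cells with *Il1rl1* and no coreceptor UMI, of which 7 had *Trac* (described below). The cells with *Il13* are named by this gene only, and the counts of genes that passed were also computed on the 164 cells with a *Trac* UMI.

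RNA of other lung cells was counted in T cells as well. Epithelial markers reached 463, 10361, and 8951 CPM, led by *Sftpc*, the surfactant protein of alveolar type 2 cells, with 10932 UMIs in 177 cells. Of the 12642 epithelial marker UMIs, 11965 lay in 3 cells, 2 in mouse 3 and 1 in mouse 4, and the median T cell held 3. In mouse 3, 1 T cell of 95266 UMIs held 1000 of the 1165 endothelial marker UMIs, and in mouse 2, 1 T cell held 371 of the 476 stromal marker UMIs. Simulated doublets marked 4 of the 222 T cells, 2 of those rich in epithelial RNA among them. Of the B cell markers, *Ighm* was counted 787 times in 170 T cells while *Vpreb3* stood at 0. The part of this RNA in the results was not tested, and each count was also computed on cells free of *Epcam*, *Cdh5*, and *Col1a1* UMIs.

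T cells were then compared with the other classes over genes that the rule did not use, as sums per mouse in edgeR (quasi-likelihood test, Benjamini-Hochberg adjustment over 10353 genes, threshold 0.05). Since all classes were chosen by transcripts, a difference describes what goes with these transcripts in the same cells. Against NK cells, the other lymphocytes with many shared transcripts, 437 genes (4.22%) passed, 228 higher (2.2%) and 209 lower (2.02%) in T cells. Against B cells 2487 genes (24%) passed, 1247 higher (12%) and 1240 lower (12%). Against other immune cells 3868 (37.4%) passed, 1716 higher (16.6%) and 2152 lower (20.8%). The NK sums held 10 to 30 cells each. Without mouse 2, 3, or 4, the count against NK cells was 177, 126, or 168 genes, and without mouse 4 the count against other immune cells was 2450. Without TMM scaling the split against NK cells was 152 higher and 265 lower, and that against other immune cells turned to 2293 higher and 1864 lower.

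Of 20 tested genes of T cell receptor signaling, 5 were higher in T cells than in NK cells, 1 was lower, and 14 did not pass. *Lat*, the adaptor that relays the receptor's signal, stood at 186, 211, and 212 CPM in T cells and 43.5, 31.8, and 41.7 CPM in NK cells (log2 difference 2.63 ± 0.33, adjusted p = 0.000327). The inhibitory receptor gene *Cd5* stood at 119.6, 122, and 142 CPM against 0, 0, and 20.9 CPM (ratio 45.6, 95% counting interval 8.11 to 1810.2, adjusted p = 0.00348), and its relative *Cd6* at 102, 74.6, and 88.5 CPM against no UMI (at least 10.3-fold higher, adjusted p = 0.00196). The phospholipase gene *Plcg1* and *Themis*, a regulator of selection in the thymus, were the other 2, and *Themis* did not pass with the mouse as a block (adjusted p = 0.0554). Of these 5, 4, 3, and 4 passed without mouse 2, 3, and 4, respectively. *Txk*, a kinase of the Tec family, was the one lower gene, at 206, 167, and 206 CPM in T cells and 555, 341, and 605 CPM in NK cells (log2 difference -1.11 ± 0.21, adjusted p = 0.00792), but not without mouse 2 or 4. *Cd247*, the CD3ζ chain that NK receptors also use, did not pass, with 123, 184, and 142 CPM against 109, 72.8, and 83.5 CPM (adjusted p = 0.260). The median log2 difference of the 20 genes was 0.57, against 0.13 for all genes tested. Against B cells 18 of the 20 were higher and none was lower (median 6.56, against 0.00 for all genes), and against other immune cells 19 were higher (median 4.27, against 0.02). All 3 coreceptor genes (*Cd4*, *Cd8a*, and *Cd8b1*) were higher in T cells in each of the 3 comparisons. Against NK cells, however, *Cd8a* and *Cd8b1* did not pass with DESeq2 (adjusted p = 0.447 and 0.528) or without mouse 2 (adjusted p = 0.186 and 0.185). Without mouse 3 none of the 3 passed there. In NK cells *Cd4* had no UMI and the 6 *Cd8a* UMIs were all in mouse 4.

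Of 13 tested T lineage transcription factors, 5 were higher than in NK cells (*Bcl11b*, *Lef1*, *Ets1*, *Tcf7*, *Tox*) and 1 was lower (*Runx3*, adjusted p = 0.0418, and 0.0734 with the mouse as a block). *Bcl11b* stood at 361, 378, and 352 CPM in T cells and 10.9, 13.6, and 83.5 CPM in NK cells (log2 difference 4.14 ± 0.42, adjusted p = 5.75e-05). *Lef1* stood at 306, 334, and 327 CPM against 76.2, 68.2, and 83.5 CPM (log2 difference 2.31 ± 0.31, adjusted p = 0.000660), and *Tcf7*, whose product TCF1 acts beside LEF1, at 490.0, 460.5, and 352 CPM against 152, 196, and 167 CPM (log2 difference 1.46 ± 0.27, adjusted p = 0.00719). NK cells thus held both TCF/LEF factors, at lower levels in each mouse. The 5 higher factors came to 4, 2, and 2 without mouse 2, 3, and 4, with *Tcf7*, *Ets1*, and *Tox* lost without mouse 3 and without mouse 4. Against B cells 7 of the 13 were higher, with *Gata3* at 259, 268, and 224 CPM against 0, 4.69, and 0.395 CPM (log2 difference 6.67 ± 0.46, adjusted p = 1.46e-07), and *Ikzf3*, which encodes Aiolos, was lower (112, 141, and 117 against 384, 446, and 383 CPM, log2 difference -1.80 ± 0.16, adjusted p = 1.91e-06). The 31 cells with *Il1rl1* and no coreceptor UMI held 182 of the 449 *Gata3* UMIs of T cells. *Gata3* also passed against B cells on cells with a *Trac* UMI. Against other immune cells 10 were higher, and *Runx1* and *Zbtb7b* were lower, the latter not without TMM scaling or without any one of the mice. *Ikzf3* lay on opposite sides in these 2 comparisons, at 4.04, 9.83, and 9.73 CPM in other immune cells (log2 difference 3.76 ± 0.21, adjusted p = 3.90e-08).

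Of 11 tested genes of naive and recirculating T cells, 4 were higher than in NK cells and none was lower. *Il7r* stood at 416, 373, and 459 CPM in T cells and 10.9, 9.09, and 20.9 CPM in NK cells (log2 difference 5.36 ± 0.39, adjusted p = 4.94e-06). *Dapl1*, a gene of naive T cells, stood at 174, 79.8, and 136 CPM and had no UMI in NK cells (at least 14.7-fold higher, adjusted p = 0.00558). *Lef1* and *Foxo1* (adjusted p = 0.0404, and 0.0698 with the mouse as a block) were the other 2. *Foxo1* also did not pass without TMM scaling or without any one of the mice, and *Dapl1* did not without mouse 4. *Il7r* and *Lef1* passed in each of these settings. Against other immune cells 10 of the 11 were higher. Against B cells, which recirculate too, 5 were higher and *Bach2* and *Foxp1* were lower, with *Bach2* at 37.2, 59.2, and 65.8 CPM in T cells and 190.4, 254, and 195 CPM in B cells (log2 difference -2.06 ± 0.19, adjusted p = 2.28e-06).

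Of 11 tested cytotoxic genes, 8 were lower in T cells than in NK cells and none was higher (median log2 difference -2.85). *Gzma*, a granule protease, stood at 49.0, 121, and 224 CPM in T cells and 7367, 4893, and 5844 CPM in NK cells (log2 difference -5.32 ± 0.48, adjusted p = 5.88e-05), and *Nkg7*, a granule membrane protein, at 299.9, 248, and 304 CPM against 2274, 1446, and 2505 CPM (log2 difference -2.63 ± 0.22, adjusted p = 1.77e-05). *Klrk1*, the activating receptor NKG2D, stood at 17.6, 37.3, and 26.7 CPM against 1088, 837, and 772 CPM (log2 difference -4.83 ± 0.30, adjusted p = 1.64e-06). The chemokine gene *Ccl5* did not pass (757, 737, and 429.9 against 5648, 5993, and 3987 CPM, adjusted p = 0.117), although the mice did not overlap. T cells were not without these transcripts, since 9 of the 11 were higher than in B cells and 9 higher than in other immune cells. Cells with *Ncr1* or *Klre1* UMIs had been left out by the rule, and the part of this choice in these levels was not tested.

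Of 8 tested regulatory T cell genes, 5 were higher than in NK cells, and all 8 were higher than in B cells and than in other immune cells. *Foxp3* stood at 51.0, 122, and 101 CPM in T cells and had no UMI in NK or B cells (at least 11.5-fold higher, adjusted p = 0.00592, against NK cells). *Ikzf2*, which encodes Helios, stood at 409.7, 669, and 701 CPM against 54.4, 105, and 20.9 CPM in NK cells (log2 difference 3.11 ± 0.34, adjusted p = 0.000125). Without mouse 3, and likewise without mouse 4, *Ikzf2* was the 1 of these 5 that passed against NK cells, and *Icos* was also lost without TMM scaling and on cells with *Trac*. Of 13 memory and tissue residence genes, *Cxcr6*, *S100a4*, and *S100a6* were higher than in NK cells and *Ahnak* and *Itgb1* lower. *S100a4*, a calcium-binding protein of memory cells, stood at 743, 620.0, and 983 CPM against 43.5, 150.1, and 104 CPM (log2 difference 3.00 ± 0.45, adjusted p = 0.00148). The 31 cells with *Il1rl1* and no coreceptor UMI, which mostly lacked *Cd3d* and *Trac*, held 547 of the 1339 *S100a4* UMIs and 93 of the 195 *Cxcr6* UMIs of the 222 cells. Both genes also passed on the 164 cells with a *Trac* UMI, which hold 7 of those 31. *Itgb1* did not pass with the mouse as a block (adjusted p = 0.0733), *Ahnak* and *Itgb1* did not without any one of the mice, and *S100a6* did not without mouse 3 or 4.

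Of 11 tested helper cytokine and receptor genes, *Il6ra* and *Il6st*, the chains of the IL-6 receptor, and *Il27ra* were higher in T cells than in NK cells, and *Il2rb*, the IL-2 and IL-15 receptor β chain, and *Ifngr1*, a chain of the interferon-γ receptor, were lower. *Il6st* stood at 80.4, 121, and 90.5 CPM in T cells and 0, 13.6, and 0 CPM in NK cells (ratio 12.1, 95% counting interval 4.07 to 59.2, adjusted p = 0.00112). *Il2rb* stood at 104, 131, and 187 CPM against 827, 437, and 918 CPM (log2 difference -2.09 ± 0.30, adjusted p = 0.00112), and *Ifngr1* at 249, 261, and 317 CPM against 664, 414, and 647 CPM (log2 difference -0.81 ± 0.21, adjusted p = 0.0469). *Ifngr1* did not pass without any one of the mice, and *Il27ra* did not without mouse 2 or 3.

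Notch signaling guides T cell commitment in the thymus, and its ligand DLL4 is the subject of the study. Of 13 tested Notch pathway genes, *Dtx1*, a Notch target that encodes Deltex-1, was higher than in NK cells (27.4, 47.6, and 72.0 against 10.9, 0, and 0 CPM, ratio 17.4, 95% counting interval 3.05 to 697, adjusted p = 0.0265). *Nrarp*, a target that dampens Notch signals, was lower (9.80, 9, and 4.11 against 87.1, 132, and 62.6 CPM, log2 difference -3.56 ± 0.44, adjusted p = 0.000285). Against B cells the receptor *Notch1*, its DNA-binding partner *Rbpj*, *Dtx1*, and *Jag1* were higher, and *Notch2* and *Hes1* were lower. *Notch2*, the receptor that B cells of the marginal zone need, stood at 27.4, 30.9, and 28.8 CPM in T cells and 80.1, 95.3, and 81.7 CPM in B cells (log2 difference -1.65 ± 0.16, adjusted p = 3.59e-06). *Notch1* stood at 92.1, 156, and 61.7 CPM against 29.6, 26.4, and 51.7 CPM (log2 difference 1.46 ± 0.31, adjusted p = 0.00276), so the fitted differences of the receptors had opposite signs. Of these calls *Notch1* was lost without mouse 3, *Dtx1* without mouse 3 or 4, *Hes1* without mouse 2 or 4, *Jag1* without any one of the mice, and *Rbpj* and *Jag1* on cells with a *Trac* UMI (adjusted p = 0.0856 and 0.438). *Jag1* was also lost when a cell had to have 500 genes and no more than 10% mitochondrial UMIs (adjusted p = 0.212). The 4 higher genes came to 2 on cells with *Trac*, and to 3, 1, and 2 without mouse 2, 3, and 4. Against NK cells *Dtx1* was lost without mouse 3 or 4 and *Nrarp* without mouse 3. Against other immune cells 5 of the 13 passed, near the 37.4% of all genes that passed there. *Dtx1* was the 1 higher gene and *Notch2*, *Notch3*, *Hes1*, and *Rbpj* were lower, with *Rbpj* at 173, 187, and 152 CPM there against 123, 119.6, and 113 CPM in T cells (log2 difference -0.66 ± 0.21, adjusted p = 0.0262). *Rbpj* no longer passed there without TMM scaling (adjusted p = 0.0725) or without mouse 3 or 4, *Hes1* not without mouse 2 or 4, and *Notch3* not without the marked doublets (adjusted p = 0.145). *Hes1* was also lost there when a cell had to have 500 genes and no more than 10% mitochondrial UMIs (adjusted p = 0.139). *Notch3* did not have a value in every alternative.

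Of 14 cell division genes, 13 were higher in T cells than in B cells, 7 higher than in other immune cells, and 1 (*Tubb5*) higher than in NK cells, where it did not pass with the mouse as a block (adjusted p = 0.0531) or without any one of the mice. The 7 higher than in other immune cells came to 5, 4, and 3 without mouse 2, 3, and 4. *Mki67*, the proliferation antigen Ki67, stood at 345, 261, and 251 CPM in T cells and 28.1, 63.4, and 91.2 CPM in B cells (log2 difference 2.14 ± 0.35, adjusted p = 0.000417). The 31 cells with *Il1rl1* and no coreceptor UMI held 144 *Mki67* UMIs, at 1053, 113, and 445 CPM. A marked doublet of 54741 UMIs held another 25, and a cell of 47273 UMIs 81. *Mki67* also passed against B cells when T cells had to have a *Trac* UMI. A UMI of *Mki67* or *Top2a* was seen in 55 of 222 T cells (13, 25, and 17), in 23 of 78 CD4 and 11 of 60 CD8 cells, and those with a UMI were deeper (median 8335 UMIs, against 5598). Of 10 cell division genes tested between CD8 and CD4 cells, *Tubb5* and *Pcna* were higher in CD8 cells, none was lower, and *Mki67* did not pass. When a cell had to have 500 genes and no more than 10% mitochondrial UMIs, the adjusted p of *Mki67* against B cells no longer passed. Of 13 immediate early genes, 11 were lower in T cells than in other immune cells, with *Fos* at 5.88, 12.9, and 4.11 CPM against 751, 736, and 585 CPM (log2 difference -6.51 ± 0.52, adjusted p = 6.68e-07). *Cd69*, an early activation and tissue retention receptor of lymphocytes, was the 1 higher gene (60.8, 73.3, and 72.0 against 6.47, 16.4, and 4.87 CPM, log2 difference 2.69 ± 0.34, adjusted p = 3.33e-05). Against NK cells *Nfkbia* was higher and *Dusp2* and *Fos* were lower. Against B cells *Dusp2* and *Nfkbia* were lower, and *Cd69* passed in neither of these comparisons.

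In all, 87 of 10353 genes (0.840%) were higher in T cells than in NK, B, and other immune cells, with values that did not overlap between T cells and any of these classes. Of these 87, 37, 22, and 32 were called higher in all 3 comparisons without mouse 2, 3, and 4, and 69 without TMM scaling. *Camk4*, a calcium-dependent kinase, led those ranked by difference from NK cells, at 153, 152, and 113 CPM against no UMI (at least 17.0-fold higher, adjusted p = 0.00168), and did not pass without mouse 3 (adjusted p = 0.0522). *Klra4*, a Ly49 receptor of NK cells, ranked first among the genes lower in T cells than in NK cells, with no UMI against 272, 482, and 1440.3 CPM (at least 329-fold lower, adjusted p = 5.67e-05). *Bcl11a* (504, 617, and 549.5 CPM in B cells, at least 338-fold lower, adjusted p = 3.79e-08) and *Spi1*, which encodes the myeloid factor PU.1 (353, 331, and 282 CPM in other immune cells, at least 188-fold lower, adjusted p = 2.64e-07), had no UMI in T cells. The myeloid factor and the B lineage factor were thus not detected in 1773706 T cell UMIs, where the B cell transcript *Ighm* and the macrophage and monocyte marker *Lyz2* were. *Lyz2* made up 1188 of the 1201 UMIs of macrophage and monocyte markers in T cells. Of these 1201, 1144 lay in the same 3 cells that held most of the epithelial marker UMIs, and the median T cell held 0.

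By coreceptor UMIs, 78 T cells were CD4 (17, 37, and 24), 60 were CD8 (25, 20, and 15), 2 had both, and 82 had neither (18, 38, and 26). The CD8 to CD4 ratio was 1.47, 0.541, and 0.625, so by these UMIs CD8 cells were the more numerous in mouse 2 and CD4 cells in mice 3 and 4 (mean 0.879 ± 0.514 SD, n = 3). Median UMIs were 6461.5 in CD4, 6684 in CD8, and 5545.5 in cells with neither. *Trac* was detected in 65 of 78 CD4 and 55 of 60 CD8 cells but in 43 of the 82 with neither, and 31 of those 82 had *Il1rl1*. Coreceptors missed at this depth and cells without one could not be told apart. Detection was unequal, since the 60 CD8 cells held 313 UMIs of *Cd8a* and 345 of *Cd8b1*. The CD4 cells held 101 UMIs of *Cd4* in the 45 without *Foxp3* and 69 in the 33 with it. CD4 cells were thus the easier to miss, and 14 cells with neither coreceptor had *Foxp3*. The ratio may therefore stand too high, and by how much was not tested.

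**Figure D2:**
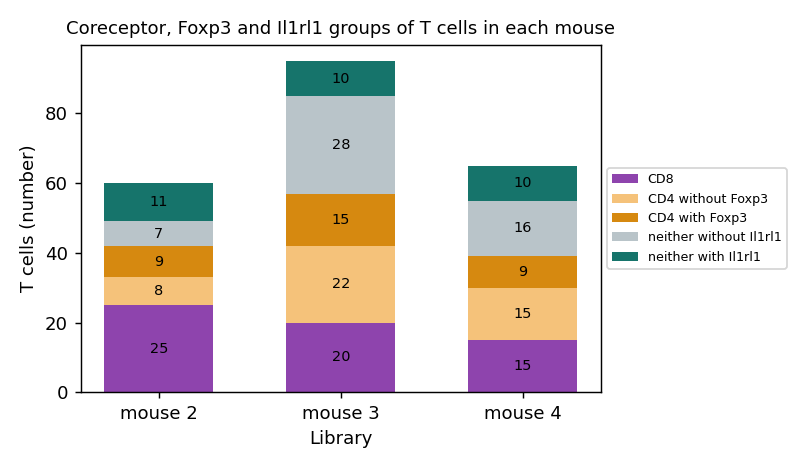
Number of T cells in each mouse by coreceptor UMIs, with CD4 cells split by *Foxp3* and cells without a coreceptor UMI split by *Il1rl1* (2 cells with both coreceptors are not drawn). CD8 cells number 25, 20, and 15, and CD4 cells with *Foxp3* 9, 15, and 9.

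Between CD8 and CD4 cells 225 of 3202 genes passed (7.03%), 93 higher (2.9%) and 132 lower (4.12%) in CD8 cells. With the mouse as a block, 412 passed (214 higher and 198 lower), of which 221 were among the 225. Without mouse 2, 3, or 4, 19, 113, or 223 passed, of which 19, 93, and 117 were among the 225. On cells with a *Trac* UMI, 224 genes passed, 200 of them shared. On cells free of *Epcam*, *Cdh5*, and *Col1a1* UMIs, 165 of 2393 passed (83 higher and 82 lower), 115 of them shared.

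CD8 cells were higher in part of the cytotoxic genes. Of 5 tested, 4 passed, and all 4 were higher in CD8 cells (*Klrd1*, *Ctsw*, *Nkg7*, *Ccl5*). The other genes of the list were under the limit on low counts. The 4 include no granzyme gene and not the perforin gene *Prf1*, and *Gzma* was seen in 6 CD8 and 4 CD4 cells. *Klrd1*, the CD94 chain of NKG2 receptors, stood at 277, 358, and 403 CPM in CD8 and 15.2, 5.28, and 21.2 CPM in CD4 cells (log2 difference 4.86 ± 0.40, adjusted p = 2.11e-06). *Nkg7* stood at 546, 518, and 551 CPM against 0, 135, and 159 CPM (log2 difference 2.37 ± 0.42, adjusted p = 0.00220). *Eomes*, a T-box factor of killer and memory cells, stood at 103, 79.7, and 118 CPM and had no UMI in CD4 cells (at least 22.7-fold higher, adjusted p = 5.91e-05). All 21 T cells with *Eomes* were CD8. *Ly6c2*, a surface antigen of activated and memory CD8 cells, stood at 488, 418, and 758 CPM against 15.2, 44.9, and 15.9 CPM (log2 difference 4.21 ± 0.37, adjusted p = 2.11e-06). *Runx3*, the factor that sets the CD8 lineage, was higher as well (178, 224, and 256 against 121, 60.8, and 79.6 CPM, log2 difference 1.46 ± 0.30, adjusted p = 0.00573), and it lost its adjusted p without any one of the mice. *Nkg7* and *Ccl5* no longer passed with DESeq2 (adjusted p = 0.266 and 0.113) or without mouse 4, and *Ccl5* also not without mouse 2. Among receptor signaling genes *Lck*, *Txk*, and *Ptpn22* were higher and *Cd5* was lower in CD8 cells, and none of the 4 passed without mouse 2. *Lck*, the kinase that binds the coreceptors, stood at 549.9, 398, and 541 CPM against 189.8, 209, and 324 CPM (log2 difference 1.10 ± 0.24, adjusted p = 0.00884). *Txk* no longer passed with DESeq2 (adjusted p = 0.0503) or without any one of the mice.

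Of the regulatory T cell genes, 7 were tested between CD8 and CD4 cells, and all 7 were higher in CD4 cells (*Foxp3*, *Ctla4*, *Il2ra*, *Tnfrsf4*, *Icos*, *Ikzf2*, *Tnfrsf18*). *Ikzf4*, *Lrrc32*, and *Tigit* of this list were under the limit on low counts. *Foxp3* and *Ctla4* had no UMI in CD8 cells and *Tnfrsf4* had 1, so these genes met that limit through CD4 cells. The filter thus had a part in this count. Of the 7, 3 and 7 passed without mouse 2 and 4. Without mouse 3, 5 passed and *Il2ra* and *Tnfrsf4* were under the limit on low counts. *Foxp3* stood at 167, 172, and 154 CPM in CD4 cells and had no UMI in CD8 cells (at least 30.1-fold lower in CD8 cells, adjusted p = 8.82e-06). *Ctla4*, an inhibitory receptor, stood at 114, 164, and 233 CPM against none (at least 31.4-fold lower in CD8 cells, adjusted p = 1.95e-05). *Ikzf2* stood at 850.2, 789.8, and 923 CPM in CD4 and 108, 54.8, and 384 CPM in CD8 cells (log2 difference -2.36 ± 0.42, adjusted p = 0.00220), and did not pass with DESeq2 (adjusted p = 0.0883) or without mouse 2. CD4 cells were further higher in *Klrg1* and *Il1rl1*, neither of which had a UMI in CD8 cells, with *Il1rl1* at 114, 84.5, and 63.7 CPM (at least 15.3-fold lower in CD8 cells, adjusted p = 0.000306), which did not pass without mouse 2. Of 9 memory and residence genes tested, *S100a6*, *S100a4*, *Itgb1*, *Id2*, and *Ccr2* were higher in CD4 cells and none was higher in CD8 cells. *S100a6* stood at 2088, 1574, and 2706 CPM in CD4 and 24.8, 144, and 59.0 CPM in CD8 cells (log2 difference -4.73 ± 0.40, adjusted p = 2.11e-06). *S100a4* and *Ccr2* no longer passed with DESeq2 (adjusted p = 0.129 and 0.279) or without mouse 2 or 4. Without mouse 2, *S100a6* was the 1 of the 5 that passed. The 33 CD4 cells with *Foxp3* held 496 of the 603 *S100a4* UMIs of CD4 cells, at 1666, 1632, and 1797 CPM, against 22.1, 109.7, and 701 CPM in the 45 CD4 cells without *Foxp3*. *Gata3*, a factor of the CD4 lineage, stood at 159, 232, and 207 CPM against 95.1, 99.6, and 78.7 CPM (log2 difference -1.07 ± 0.26, adjusted p = 0.0194), and lost its adjusted p with DESeq2 (0.107) and without any one of the mice. *Eln*, which encodes elastin of stromal cells, also passed, at 6103, 127, and 101 CPM in CD4 and 62.0, 39.8, and 98.4 CPM in CD8 cells, and did not pass on cells free of *Epcam*, *Cdh5*, and *Col1a1* UMIs. *Pecam1*, an endothelial marker that leukocytes also express, was higher in CD4 cells too (175, 494, and 138 against 41.3, 34.9, and 39.4 CPM, log2 difference -2.82 ± 0.47, adjusted p = 0.00141), also on those cells (adjusted p = 0.00297) but not without mouse 2. The 3 T cells with *Cdh5* were all CD4 and from mouse 3, the mouse of the T cell richest in endothelial RNA.

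**Figure D3:**
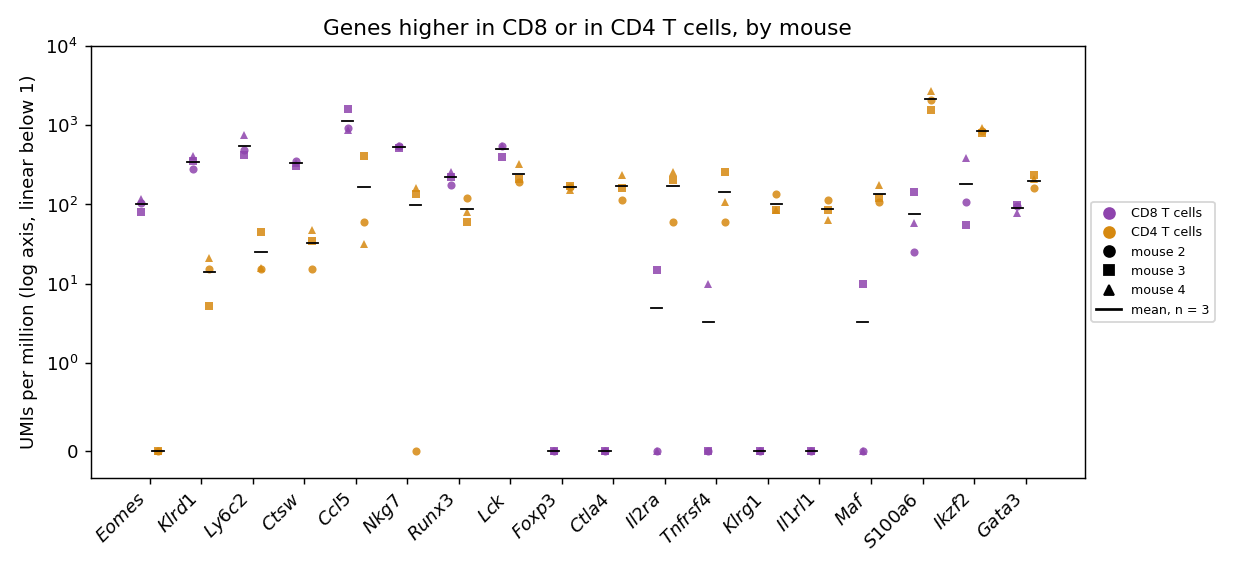
Levels in CPM (log axis, linear below 1) of 18 genes in CD8 and CD4 T cells. Each point is 1 mouse and each line the mean of 3 mice; *Foxp3*, *Ctla4*, *Klrg1*, and *Il1rl1* have no UMI in CD8 cells and *Eomes* has none in CD4 cells.

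*Foxp3* was detected in 48 T cells (10, 25, and 13), or 21.6% (exact 95% interval 16.4% to 27.6%). Of the CD4 cells, 9 of 17, 15 of 37, and 9 of 24 had a UMI, or 52.9%, 40.5%, and 37.5% (mean 43.7% ± 8.18 SD, n = 3). None of 60 CD8 cells did, where a count of 0 allows a share with a UMI of up to 5% (3 cells), or 5.96% by the exact 95% interval. Cells whose *Foxp3* transcripts were missed are not covered by this limit. In B cells, which should lack *Foxp3*, it was seen in 0 of 1810 cells at a median of 4031.5 UMIs, against 6197.5 in T cells. Of the 48 cells, 40 had *Ctla4* against 7 of the other 174, 47 had *Ikzf2* against 79, and 28 had *Il2ra*, the IL-2 receptor α chain, against 27. *Tcf7* showed the opposite, in 15 of 48 against 139 of 174 cells. *Il1rl1* was seen in 23 and *Klrg1* in 22 of the 48, and *S100a4* in 35. As *Foxp3* defined these cells, the counts are given without a test.

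Cells with *Il1rl1* differed among themselves in coreceptor, *Foxp3*, and *Cd3* transcripts. Of 48 cells with a UMI (16, 19, and 13), 23 had *Foxp3* and 25 did not, 17 were CD4, none was CD8, and 31 had no coreceptor UMI. Those 31 (11, 10, and 10) all had *Cd3g* and *Trbc2*, while 7 had *Cd3d*, 11 *Cd3e*, and 7 *Trac*. *Gata3* and *Rora*, factors that type 2 lymphocytes need, were each seen in 27 of the 31, *S100a4* in 28, *Cxcr6* in 21, and *Thy1* in 29. *Cd5*, *Cd28*, and *Lef1* were seen in 8, 7, and 7. As in the cells with *Il13*, the low counts of *Cd3d* and *Trac* go against the label T cell in these 31, although 7 of them had *Foxp3* and 7 *Ctla4*. The other 51 cells without a coreceptor UMI differed in these counts, with *Cd3d* in 42, *Trac* in 36, *Cd28* in 32, and *Lef1* in 31, at a median of 4667 UMIs against 6790.0 in those with *Il1rl1*. *Il1rl1* was also seen in 4 of 1810 B cells and in 90 of 791 other immune cells.

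All 10 cells with *Il13* lacked a coreceptor UMI and *Foxp3*. *Gata3*, *Rora*, *S100a4*, and *Thy1* were seen in all 10, *Il1rl1* and *Cxcr6* in 8 each, and *Klrg1* in 7, whereas *Cd5*, *Cd6*, *Cd28*, and *Ccr7* were seen in none. Their median depth was 8277.5 UMIs, against 6186 in the other 212 cells. These groups were singled out after their values were seen and are described without a test.

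**Figure D4:**
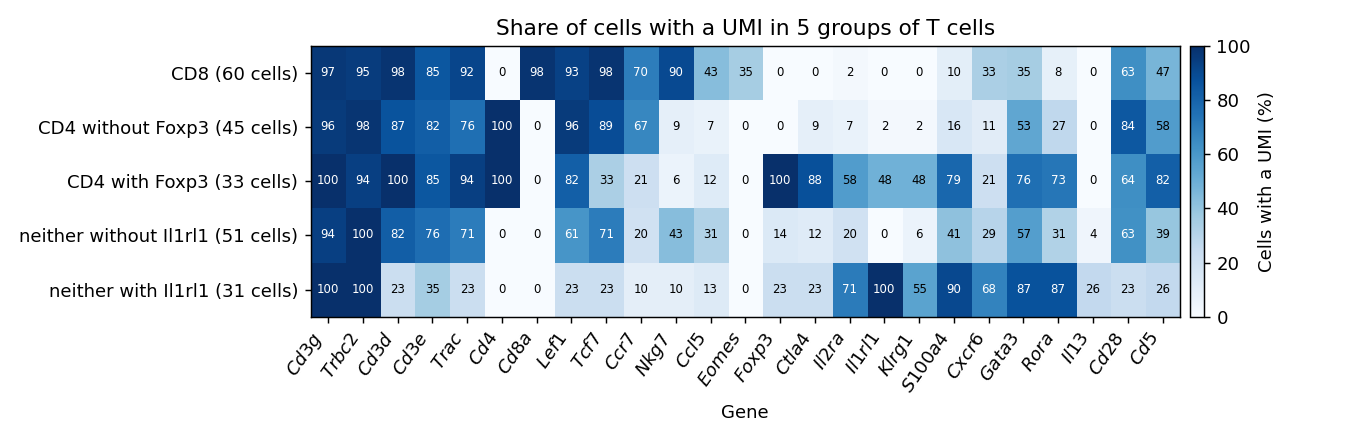
Percent of cells with at least 1 UMI (color and number) of 25 genes in CD8 cells, CD4 cells without and with *Foxp3*, and cells with neither coreceptor, without and with *Il1rl1*. *Cd3g* and *Trbc2* are near 100% in each group, while *Cd3d*, *Cd3e*, and *Trac* stand at 22.6%, 35.5%, and 22.6% in the group with neither coreceptor and *Il1rl1*.

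Smaller sets of T cells carried genes of other programs. *Gzma* was detected in 16 cells (2, 11, and 3), of which 6 were CD8, 4 CD4, and 6 neither, and 2 were marked as doublets. *Trdc* was detected in 11 cells (4, 5, and 2), none of them CD4, and 6 of these also had *Trac*. *Ccl5* was detected in 53 cells, 26 of them CD8, which is 44.0%, 40.0%, and 46.7% of the CD8 cells of the 3 mice (mean 43.6% ± 3.36 SD, n = 3), against 0.387% of B cells. A UMI of *Rag1*, *Rag2*, *Dntt*, or *Ptcra*, genes of thymocytes before their receptors are complete, was seen in 4 cells, of which 3 held 93 of the 94 UMIs. Of those 3 cells, the one with 40 of the UMIs (19 of *Rag1*, 13 of *Dntt*, and 7 of *Ptcra*) had 8740.0 UMIs in all, was not marked as a doublet, and had no *Trac* or coreceptor UMI. The others had 54741 and 47273 UMIs in all, against the median of 6197.5, and the first of them was marked as a doublet.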

How the data were processed

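Lung cells of 3 mice were profiled with 10x Genomics libraries, 1 per mouse. Per the submitters' processing notes, the authors made the deposited UMI counts with Cell Ranger 3.0.2 on mm10; the annotation behind them is not given in the sources used here. The matrices hold 9644 cells (3034, 3135, and 3475, with 23744510, 22476491, and 25192427 UMIs), of which 7642 were kept here (at least 200 genes, 20% mitochondrial UMIs or fewer). The series text speaks of 5677 cells and states no filter.

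Raw UMI counts of each class were added up within each mouse and compared in R 4.3.3 with the quasi-likelihood test of edgeR 4.0.16 (TMM scaling, filterByExpr, Benjamini-Hochberg adjustment over all genes tested, threshold 0.05), without the genes that chose the cells. All 4 immune classes entered 1 fit. CD8 and CD4 cells had a fit of their own, and a sum of under 5 cells was left out. A ± after a log2 difference is its standard error. Where a group had no UMI, the fold was taken against a floor of 3 counts over the group, and with 1 to 3 UMIs the ratio of pooled counts is given with an exact 95% interval. Intervals and floors cover counting error only. Cells are not replicates, so the mice are.

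Sums of the same mouse come from 1 animal. Same-mouse deviations correlated between -0.37 and 0.31 (18 pairs of classes) and between -0.04 and 0.23 for coreceptor groups. The fits were repeated with the mouse as a block, with DESeq2 1.42.0, without TMM or the filter, on other cell filters and T cell rules, without each mouse, and without marked doublets. Doublets were scored with Scrublet in scanpy 1.11.5 (Python 3.11.15), which by its own threshold marked 14, 10, and 19 cells; in mice 2 and 3, where this came to under 0.5%, the highest scores were marked instead (74 and 79), and they were kept in the results unless said otherwise. Steps were tested on simulated data.

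Named genes are those of pathway lists (receptor signaling, lineage factors, and others) and the 10 highest and 10 lowest log2 differences per comparison, among genes past the threshold whose mice did not overlap. Receptor and immunoglobulin segments were left out. Members, lists, and splits were chosen with earlier results of these data known. *Trbc1*, and cells grouped by *Il13*, *Il1rl1*, and *Foxp3*, were chosen after their values were seen. Some genes of these lists, and 1 split of T cells, are not reported here.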

Additional observations from a re-analysis of the deposited data

Results flagged for a closer look

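Some cells outside the analysis also carried T cell transcripts. Of the cells that failed the limits on genes or mitochondrial UMIs, 10 met the UMI rule for T cells (7, 1, and 2 in mice 2, 3, and 4). Another 40 kept cells had *Cd3* and receptor UMIs together with *Ncr1* or *Klre1* (7, 20, and 13). *Klre1* was seen in 39 of them, *Ncr1* in 24, *Gzma* in 29, and *Lef1*, a factor of naive T cells, in 19. The last set, 9 cells with *Cd3*, receptor, and *Cd79a* UMIs (0, 7, and 2), had a median of 9960 UMIs against 6197.5 in T cells, and 1 was marked as a doublet. Their identity was not tested.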

How the results depend on the processing

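Alternatives were followed for 125 named gene results, and none of these that passed turned its direction. Some named genes, such as *Nfkbia* and *Dusp2*, were not among them. The number of calls moved with the cells and mice used. The balance of higher and lower calls moved with the scaling, the filter on low counts, the method of testing, and the mice used. For these 125 results, 1617 alternative values were computed, of which 1433 stayed on the same side of the threshold in the same direction, 182 no longer passed, and 2 now did (*Ccl5* against NK cells). Of all 437 calls against NK cells, 429 were tested without mouse 3 and 421 of these kept their direction. The share of T cells, 2.90% as reported, was 2.14% with a *Trac* UMI required, 5.34% among cells free of *Epcam*, *Cdh5*, and *Col1a1* UMIs, and 1.20% with each cell thinned to 1000 UMIs. After thinning, the CD8 to CD4 ratio was 4 in mouse 2 (8 to 2 cells) and 0.833 in mouse 3 (5 to 6), with no value in mouse 4, where no CD4 cell was left. With both cell limits tightened together, to 500 genes and a 10% mitochondrial share, the ratio in mouse 4 was 0.409 (0.625 as reported). It was 1.92 in mouse 2 among the cells free of *Epcam*, *Cdh5*, and *Col1a1* UMIs (1.47 as reported). These *Trac* and *Epcam* settings were added after seeing the data.

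Leaving out 1 mouse gave 126 to 177 calls against NK cells (437 with all), 2450 to 3089 against other immune cells (3868), and 19 to 223 between CD8 and CD4 cells (225). With fewer mice the fits had fewer sums. Between CD8 and CD4 cells, 681 genes passed without the filter on low counts (13674 tested), 124 with DESeq2, and 412 with the mouse as a block. The cause was not tested where neither genes nor sums were fewer. The block left the other counts of calls within 1.5 times (340 against NK cells, 2288 against B cells, and 3560 against other immune cells). Among the 125 named gene results followed, it changed no call but *Themis*, *Runx3*, *Foxo1*, *Itgb7*, *Itgb1*, and *Tubb5* against NK cells.

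TMM moved the median log2 difference of all genes by over 0.1 in 2 comparisons. Without it, this median went from 0.13 to -0.01 against NK cells, where 36.5% of calls were then higher in T cells in place of 52.2%, and from 0.02 to 0.16 against other immune cells (55.2% in place of 44.4%). It went from 0.00 to 0.10 against B cells (58.9% in place of 50.1%), and from -0.01 to -0.07 between CD8 and CD4 cells (33.5% in place of 41.3%). Without the filter, 31.6% of calls were higher against other immune cells, 38.7% against B cells, and 23.3% between CD8 and CD4 cells. With the block the last was 51.9%. DESeq2 gave 41.9% against NK cells and 32.5% against other immune cells. Without mouse 2, 3, or 4, the share of higher calls was 41.8%, 43.7%, or 38.7% against NK cells. Against other immune cells it was 33.0% without mouse 2. *Runx3* against NK cells lost its adjusted p in 10 settings, *Itgb1* and *Tubb5* in 8 each, *Itgb7* in 7, and *Foxo1*, *Icos*, *Tox*, *Ifngr1*, and *Itga4* in 6 each. The NK sums held 10 to 30 cells each, and the part of this in the lost calls was not tested.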

Other observations

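With all mice, some chemokine receptor and integrin genes passed against NK cells in both directions, but most of these calls were not kept in each alternative. Of 12 tested, *Cxcr6* and *Itgb7*, a gut- and tissue-homing integrin chain, were higher in T cells, and *Itgb2*, *Itgal*, and *Itga4* were lower. *Itgb7* stood at 331, 331, and 424 CPM in T cells and 218, 241, and 125 CPM in NK cells (log2 difference 0.95 ± 0.23, adjusted p = 0.0370), and did not pass without TMM or with the mouse as a block (adjusted p = 0.0618). Without mouse 3, *Cxcr6* was the 1 of these 5 that passed. *Itgb7* and *Itga4* did not pass whichever mouse was left out. Of 6 inhibitory receptor genes tested, *Slamf6*, *Ctla4*, and *Btla* were higher than in NK cells (*Slamf6* alone without mouse 3 or without mouse 4), while *Btla* was lower than in B cells (29.4, 51.5, and 47.3 against 393, 433, and 395 CPM, log2 difference -3.33 ± 0.25, adjusted p = 1.30e-06). The GIMAP genes, small GTPases of lymphocyte survival, were all 8 higher in T cells than in other immune cells (median log2 difference 3.48). Compared with B cells, *Gimap4* and *Gimap3* were higher and *Gimap1*, *Gimap6*, and *Gimap7* were lower (median -0.09). Against NK cells *Gimap5* alone passed, as lower (129, 123, and 123 against 424, 186, and 709.7 CPM, log2 difference -1.40 ± 0.32, adjusted p = 0.0240), and not without mouse 2 or 4 or on cells with *Trac*.

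Genes of innate-like T cells ranged widely in how many cells held them. *Il18r1*, the IL-18 receptor α chain, and *Maf*, a factor of cytokine-producing T cells, were seen in 76 and 71 of 222 T cells. *Zbtb16*, which encodes PLZF of NKT cells, was seen in 15 T cells, whereas *Il17a*, *Il17f*, *Il21*, and *Il22* had no UMI in T cells. *Cd163l1*, a scavenger receptor of γδ T cells, was seen in 18 T cells, 12 of which were CD8. Of 9 innate-like genes tested, *Klrb1c* and *Il18r1* were lower than in NK cells, and none was higher. Of 6 thymocyte genes tested, *Dgka*, a lipid kinase, and *Themis* were higher than in NK cells.

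Variable segments of the receptor genes were counted rarely. Of 175 segments, 39 had a UMI in T cells, with 106 UMIs in 68 cells. *Trgv2* led with 13 UMIs in 10 cells, followed by *Trdv4* with 10 UMIs in 8.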
